A study of Mus musculus with 2 samples.

Results

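Genes of the platelet-derived growth factor (PDGF) system were followed in single cells of the lung fibroblastic stroma of C57Bl/6J mice. The group consisted of 7 genes chosen by name among the 21014 genes of the deposited tables, and all 7 were found. They were the receptors Pdgfra (ENSMUSG00000029231) and Pdgfrb (ENSMUSG00000024620) and the receptor-like gene Pdgfrl (ENSMUSG00000031595). The ligands were Pdgfa (ENSMUSG00000025856), Pdgfb (ENSMUSG00000000489), Pdgfc (ENSMUSG00000028019) and Pdgfd (ENSMUSG00000032006). The tested animals had been fed a high fat diet (HFD) for 16 weeks, and the others normal chow (NC) for the same time. Each diet gave 1 library, made with the 10x Genomics 3′ v3 single-cell kit, and how many animals or which sex went into a library is not given in the sources used here.

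PDGF ligands are secreted dimers that bind 2 receptor tyrosine kinases, PDGFRα and PDGFRβ, whose pairing starts signalling through the Ras, PI3K, phospholipase C and Src branches. The A and C ligands act mainly through PDGFRα and the B ligand through both receptors, while the D ligand acts mainly through PDGFRβ. In the lung, PDGFRα is known as a receptor of interstitial fibroblasts and of the precursors of alveolar myofibroblasts, and PDGFRβ as a receptor of pericytes and vascular smooth muscle. The questions were where each gene was detected and whether its level differed between the HFD and the NC library.

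Cells below 500 detected genes or above 10% mitochondrial counts were left out, which kept 6089 HFD cells and 8140 NC cells. They held 71014948 counts in HFD and 69940474 in NC, with a median of 10045 counts per HFD cell and 7524 per NC cell. The deposited annotation names 5 classes, the Asc1, Gas6 and Pi16 fibroblasts, the myofibroblasts and the pericytes, and the first 4 of them are pooled below as fibroblasts. The class labelled myofibroblasts carried the myofibroblast gene Hhip, at 5101 CPM (the count scaled to the same total for every library and class) in HFD and 4248 in NC. The class labelled pericytes carried genes of its label and of smooth muscle. The 12 genes of the pericyte list summed to 784 CPM in HFD and 578 in NC there, against 641 and 631 CPM in myofibroblasts. Of these genes, 4 were highest in that class in both libraries, among them Mcam, at 266 CPM in HFD and 213 in NC, and Rgs5, at 123 and 46.5 CPM, while Higd1b was at 3.86 and 2.04 CPM. The 10 genes of the smooth muscle list summed to 29816 CPM in HFD and 28616 in NC in the class labelled pericytes. Myofibroblasts had 3342 and 4226 CPM of that list. The smooth muscle gene Acta2 was at 12769 CPM in HFD and 12126 in NC in the class labelled pericytes. Pecam1, Epcam, Sftpc, Msln and Ptprc, markers of endothelial, epithelial, mesothelial and immune cells, were at 0 in the kept cells of both libraries, but other genes of these lists were detected. Over all kept cells the epithelial list summed to 34.7 CPM in HFD and 26.6 in NC, of which the club cell gene Scgb1a1 gave 26.9 and 21.7 CPM. The macrophage and monocyte list summed to 32.6 CPM in HFD and 50.6 in NC, of which Plac8 gave 15.8 and 35.2 CPM. The libraries shared 17 cell barcodes. A single library per diet allows neither a test nor a check between replicates, so every difference is between these libraries, and every 95% interval covers counting error only. Intervals rest on effective counts, the recovered counts divided by a factor for their clumping within cells (4.85 in HFD, 3.98 in NC). The factor is a median over genes found in 0.1 to 1% of the cells of a library. For a gene more clumped than that median, the interval is too narrow. Whether the recovered counts are reads or molecules is not known. Over genes found in few cells, a positive cell had a typical mean of 3.25 counts in HFD and 2.66 in NC, so the counts given here cannot be taken as numbers of molecules.

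Pdgfra was mainly a gene of the Asc1, Gas6 and Pi16 fibroblasts. Its summed level was highest in Asc1 fibroblasts, at 784 CPM in HFD (interval 761 to 808) and 785 CPM in NC (763 to 807). Gas6 fibroblasts followed with 541 CPM in HFD and 472 in NC, and Pi16 fibroblasts with 366 CPM in HFD and 289 in NC. The class labelled pericytes had 71.5 CPM in HFD and 83.0 in NC, and myofibroblasts 23.7 CPM in HFD and 23.2 in NC. This order of the classes held in both libraries, and no intervals of neighbouring classes overlapped within a library. Of Asc1 cells, 84.7% in HFD (83.4 to 85.9%) and 83.1% in NC (81.9 to 84.2%) had a Pdgfra count, against 4.12% of HFD myofibroblasts and 6.15% of NC myofibroblasts. After each cell was thinned to 3000 counts, 71.3% of HFD and 72.4% of NC Asc1 cells were positive.

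The low Pdgfra level in the class labelled pericytes stood beside other genes of alveolar fibroblasts. Pdgfra was there at 9.12% of its Asc1 level in HFD and at 10.6% in NC. Tcf21, a transcription factor of alveolar fibroblasts, was at 8.18% in HFD and 10.5% in NC. The 10 markers of that list had a median of 9.83% in HFD (7.85 to 101%) and 12.85% in NC (7.57 to 83.2%). The upper end was Itga8 in both libraries, followed by Limch1 at 25.5% in HFD and 22.5% in NC. Among the 104 HFD cells of the class with a Pdgfra count, 58.7% also had Tcf21, against 8.74% of the 492 cells without Pdgfra. In NC these shares were 73.5% of 49 cells and 10.4% of 201 cells. The Pdgfra-positive cells were also deeper, with a median of 29001.5 counts in HFD and 24947 in NC, against 18122 and 13981 in the Pdgfra-negative cells of each library. The part of shared droplets or free RNA in the Pdgfra counts of this class was not tested. In myofibroblasts Pdgfra was at 3.02% of its Asc1 level in HFD and 2.96% in NC.

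Pdgfrb had nearly the opposite order of classes. It was highest in myofibroblasts, at 122 CPM in HFD (98.2 to 150.3) and 78.5 CPM in NC (60.7 to 99.8). Pi16 fibroblasts had 107.6 CPM in HFD (92.7 to 124) and 63.3 in NC (53.6 to 74.3), and the class labelled pericytes 91.1 CPM in HFD (80.1 to 103) and 66.0 in NC (51.7 to 83.0). These 3 classes had overlapping intervals within each library. Gas6 fibroblasts had 28.2 CPM in HFD and 30.3 in NC, and Asc1 fibroblasts 17.1 CPM in HFD and 26.2 in NC, both below the other classes in each library. The class with the largest share of positive cells was that labelled pericytes, at 40.9% in HFD and 31.6% in NC, which became 17.0% and 13.8% when cells were thinned to 3000 counts. The thinned shares were 17.2% of HFD and 11.6% of NC Pi16 cells.

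A small set of cells held much of the Pdgfrb signal of the class labelled myofibroblasts. Higd1b, a gene of lung pericytes, was detected in 19 of the 510 HFD cells and 14 of the 667 NC cells there. Those 19 HFD cells held 264 of the 434 Pdgfrb counts of the class (60.8%), and the 14 NC cells held 83 of 264 (31.4%). Their Pdgfrb level was 1943 CPM in HFD and 1369 CPM in NC. The remaining myofibroblasts had 49.8 CPM in HFD and 54.8 CPM in NC. In the other classes, cells with Higd1b held between 1.76 and 13.4% of the HFD and between 0.334 and 7.64% of the NC Pdgfrb counts.

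**Figure D1:**
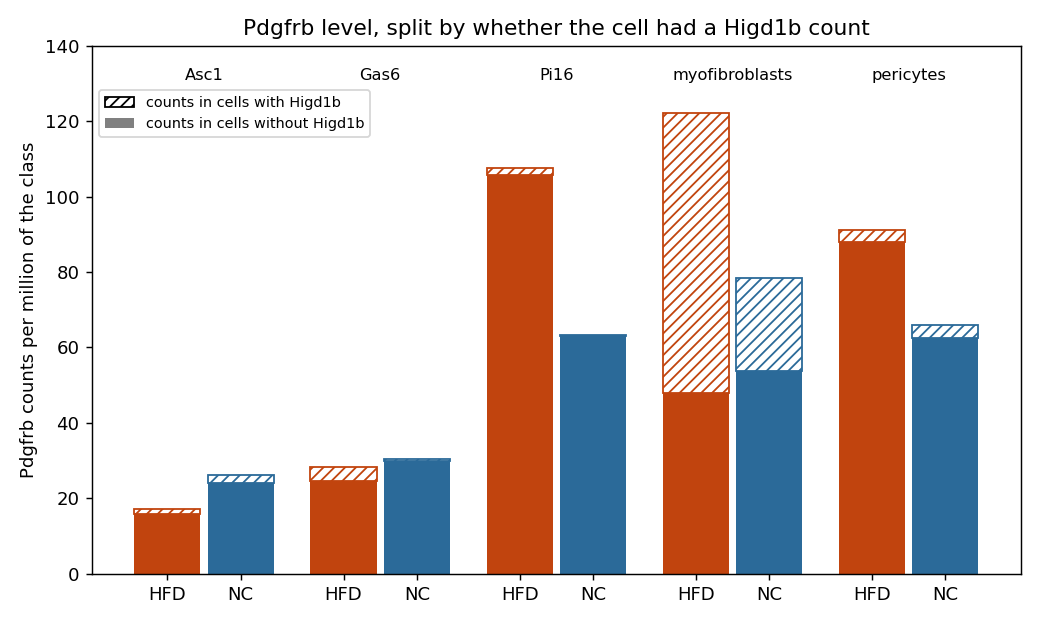
Pdgfrb level of each class (CPM, vertical axis) in the HFD and NC libraries, with 1 bar per class and library. The hatched part is held by cells with a Higd1b count and is largest in myofibroblasts, where it makes up 60.8% of the HFD and 31.4% of the NC level.

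An earlier annotation column of the NC table also sets Pdgfrb-rich cells apart. It names PDGFRb hi fibroblasts, of which 24 were among the kept NC cells, 18 of them in the class labelled myofibroblasts and 6 in the Asc1 class. Pdgfrb stood at 1854 CPM in these 24 cells (1339 to 2502) and at 35.5 CPM in all other kept NC cells. The label names this gene, so the difference is a description of the label. The pericyte genes Cox4i2 (2512 CPM), Higd1b (1097 CPM), Notch3 (965 CPM) and Cspg4 (790 CPM) were high in the same cells, against 6.46, 1.22, 7.72 and 10.4 CPM in the other NC cells. Acta2 was at 32.9 CPM there, against 934 CPM in the other NC cells, and Pdgfra at 32.9 CPM, against 516 CPM. Each of these 2 low levels rests on 3 counts in 3 cells, with an interval of 0.293 to 224.5 CPM. Tcf21 was at 285 CPM (110 to 602), in 4 of the cells, against 378 CPM in the other NC cells. Pdgfa was at 406 CPM (188 to 763), in 8 of the cells, against 26.7 CPM. In the HFD table the earlier columns do not describe their rows. The earlier total matched the later one to within 1% for 6.24% of the HFD cells but for 100% of the NC cells, and the 48 kept HFD cells with that label had 35.0 CPM of Pdgfrb, so the label was not used for HFD.

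Pdgfrl encodes a protein with homology to the PDGF receptors that lacks a kinase domain. It was highest in Pi16 fibroblasts, at 104.5 CPM in HFD (89.9 to 121) and 75.8 CPM in NC (65.1 to 87.7). Myofibroblasts had 66.7 CPM in HFD and 45.5 in NC, and Gas6 fibroblasts 44.0 CPM in HFD and 49.4 in NC, with overlapping intervals in both libraries. Asc1 fibroblasts, at 9.70 CPM in HFD and 13.6 in NC, and the class labelled pericytes, at 4.99 CPM in HFD and 13.2 in NC, were lowest. Pdgfrl was thus low in both the class richest in Pdgfra and the class labelled pericytes.

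**Figure D2:**
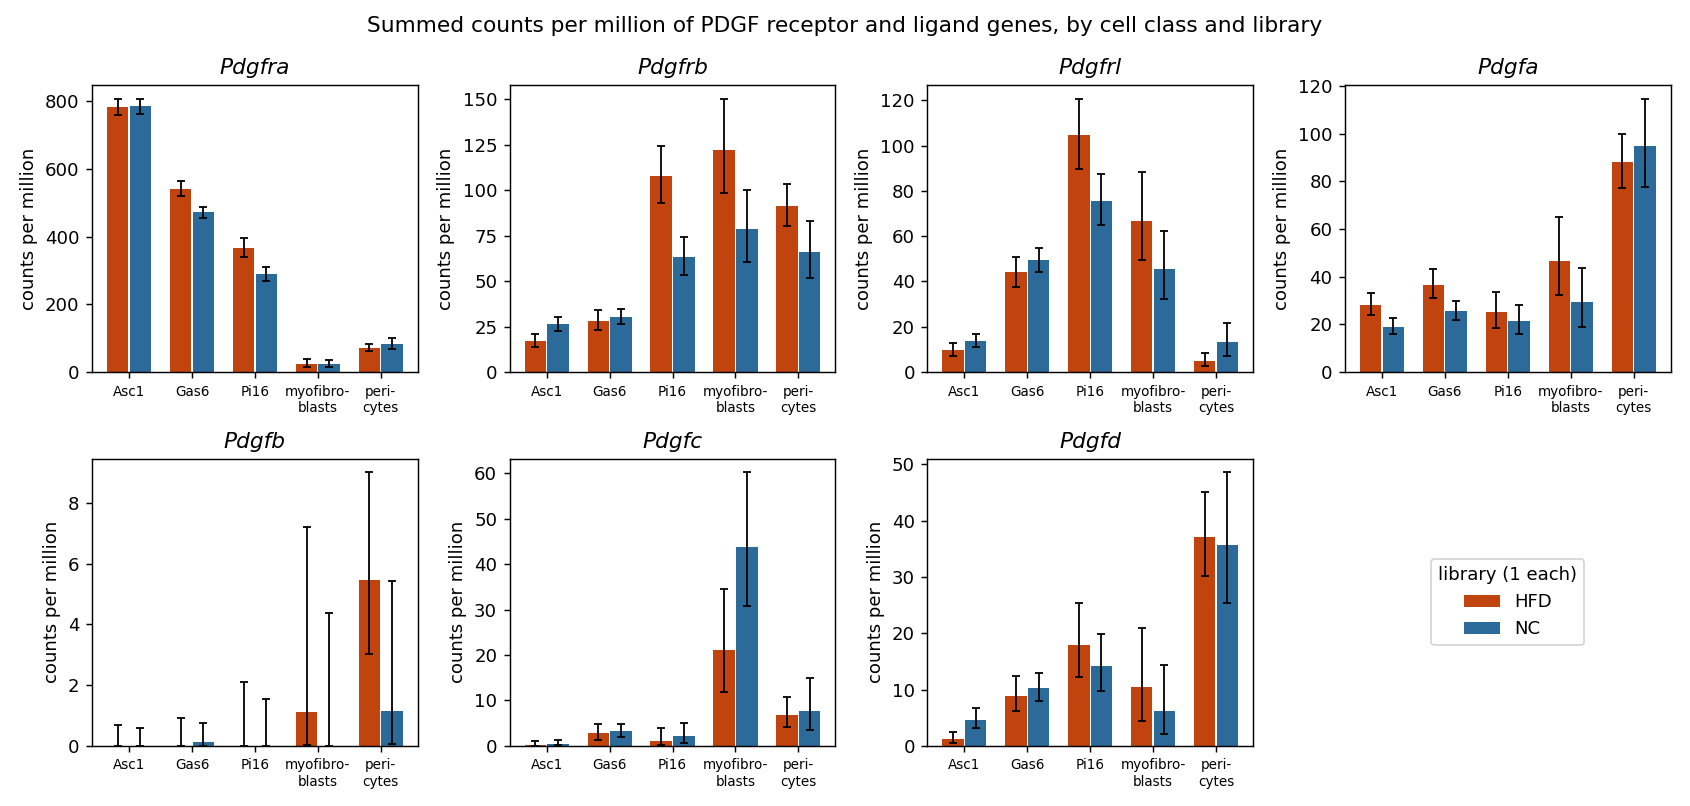
Summed level (CPM) of the 7 genes in the 5 cell classes, with HFD bars left of NC bars, 1 library each, and 95% counting intervals as error bars; each panel has its own axis. Pdgfra is highest in Asc1 fibroblasts (784 CPM in HFD, 785 in NC), Pdgfrl in Pi16 fibroblasts, Pdgfa and Pdgfd in the class labelled pericytes, and Pdgfc in myofibroblasts.

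The ligands were detected in few cells. Pdgfa, the ligand that acts through PDGFRα, was highest in the class labelled pericytes, at 88.2 CPM in HFD (77.4 to 100.1) and 94.8 CPM in NC (77.5 to 115). It was detected in 37.6% of that class in HFD and 33.6% in NC, or 16.5% and 17.8% when thinned. The 4 fibroblast classes ranged from 25.2 to 46.7 CPM in HFD and from 19.05 to 29.4 CPM in NC. Within NC these 4 classes overlapped in their intervals with at least 1 other. Pdgfd, a ligand of PDGFRβ, was also highest in the class labelled pericytes, at 37.1 CPM in HFD (30.3 to 45.1) and 35.6 CPM in NC (25.4 to 48.6). Pi16 fibroblasts had 17.85 CPM in HFD and 14.2 in NC, and Asc1 fibroblasts had 1.17 CPM in HFD and 4.66 in NC.

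Pdgfb, known mainly as a ligand from endothelial cells and platelets, was near absent from the fibroblasts. In the pooled fibroblasts it had 4 counts in 1 of 5493 HFD cells and 3 counts in 1 of 7890 NC cells. The class labelled pericytes had 72 counts in 19 of 596 HFD cells, or 5.45 CPM (3.04 to 9.01), and 5 counts in 1 of 250 NC cells, or 1.13 CPM (0.0543 to 5.43). The intervals overlap. The endothelial list summed to 2.04 CPM in HFD and 3.63 CPM in NC in that class, with Pecam1 at 0, and the platelet list to 13.8 CPM in HFD and 9.75 in NC. Their part in the Pdgfb counts was not tested.

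Pdgfc, a second PDGFRα ligand that needs proteolytic activation, was highest in myofibroblasts. It stood at 21.1 CPM in HFD (11.9 to 34.6) and 43.7 CPM in NC (30.8 to 60.3), detected in 20 of the 510 HFD cells and 51 of the 667 NC cells. The class labelled pericytes had 6.88 CPM in HFD and 7.71 in NC. Gas6 fibroblasts had 2.73 CPM in HFD and 3.16 in NC, Pi16 fibroblasts 1.06 and 2.11, and Asc1 fibroblasts 0.227 and 0.431. The class with the lowest Pdgfra level therefore had the highest Pdgfc level in both libraries. Over the 10 sums of class and library, log2(CPM + 1) of Pdgfra and Pdgfc had a Pearson correlation of -0.95. Each class enters it for both libraries, with similar values, so the sums are not independent. Only in myofibroblasts did Pdgfc reach 50 effective counts over both libraries.

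Since Pdgfra and Pdgfc lay at opposite ends of the classes, the 250 bases upstream of their RefSeq starts (GRCm38.p6, plus strand, 5′ to 3′) are shown, Pdgfra at chr5:75152001-75152250 and Pdgfc at chr3:81036166-81036415. Capitals mark a CArG box, the element bound by serum response factor and known from smooth muscle genes, searched on both strands.
Pdgfra: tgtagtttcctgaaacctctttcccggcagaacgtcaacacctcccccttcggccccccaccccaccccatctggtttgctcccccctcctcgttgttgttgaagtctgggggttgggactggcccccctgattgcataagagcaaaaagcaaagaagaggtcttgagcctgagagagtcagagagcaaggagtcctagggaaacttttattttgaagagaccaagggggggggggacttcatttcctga
Pdgfc: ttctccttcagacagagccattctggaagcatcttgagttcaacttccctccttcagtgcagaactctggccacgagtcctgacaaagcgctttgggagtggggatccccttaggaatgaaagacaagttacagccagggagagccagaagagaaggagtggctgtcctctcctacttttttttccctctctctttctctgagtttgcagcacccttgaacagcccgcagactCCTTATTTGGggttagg
The Pdgfc stretch held 1 such element, CCTTATTTGG, at positions -17 to -8 from the start, and the Pdgfra stretch held none. Of 32536 distinct RefSeq promoter stretches of this length, 481 (1.48%) held a CArG box. The upstream stretches of Pdgfa and Pdgfd held none either. GGGCGG, searched likewise and found in 33.0% of all stretches, was in both Pdgfa stretches but not in those of Pdgfra, Pdgfc or Pdgfd. A match is a description of letters, and the counts carry no measurement of promoter activity.

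Levels on the 2 diets were compared first in the pooled fibroblasts. Of the 7 genes, 6 had at least 50 effective counts over both libraries, and a gene at least 1.5-fold apart was called higher or lower by size. Pdgfc was lower in HFD, at 2.47 CPM in HFD and 4.03 in NC, a ratio of 0.614 (0.384 to 0.962). Of the 6 measured genes, 1 was called in either direction, against 10.2% of all 13422 genes measured there, 5.45% being higher and 4.75% lower in HFD. Pdgfa came nearest on the other side, at 31.8 CPM in HFD and 22.65 in NC, a ratio of 1.40 (1.21 to 1.625). Pdgfra had a ratio of 1.09 (1.06 to 1.13), Pdgfrb 1.13 (0.998 to 1.27), Pdgfrl 0.988 (0.875 to 1.12) and Pdgfd 0.802 (0.602 to 1.06). The Pdgfc call was lost under a stricter cell filter, a minimum of 1000 genes and a maximum of 5% mitochondrial counts (log2 ratio -0.55) and with all 5 classes pooled (-0.37).

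The pooled Pdgfrb ratio near 1 covered classes that differed. In Pi16 fibroblasts Pdgfrb was higher in HFD, at 107.6 CPM in HFD and 63.3 in NC, a ratio of 1.70 (1.36 to 2.12). It was the 1 member called of the 5 measured in that class, where 11.6% of genes were called in either direction, and 97.55% of the genes measured there had a lower ratio. In Asc1 fibroblasts it was lower in HFD, at 17.1 CPM in HFD and 26.2 in NC, a ratio of 0.654 (0.502 to 0.848), again the 1 called member of 4 measured, with a background of 10.3%. The ratio was 0.931 (0.733 to 1.18) in Gas6 fibroblasts, where none of the 5 measured members was called against 12.0% of genes. In the class labelled pericytes it was 1.38 (1.06 to 1.82), and none of the 4 measured members was called against 18.2% of genes. On the log2 scale the ratio in that class was 0.46, and 0.11 at the lowest of 6 alternatives. The Pi16 call held in all 6 alternatives, at log2 ratios from 0.69 to 0.85. The Asc1 call was lost over all deposited cells (-0.43), under the stricter cell filter (-0.54) and with the mean of each cell's CPM (-0.52).

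Myofibroblasts had the most calls, 3 of the 4 measured members, against 15.6% of genes in either direction. Pdgfrb had a ratio of 1.56 (1.12 to 2.17), which under the stricter cell filter was 0.24 on the log2 scale and no longer a call. Without the cells that had Higd1b the direction turned, to 49.8 CPM in HFD and 54.8 in NC, a log2 ratio of -0.14. Pdgfa had a ratio of 1.59 (0.920 to 2.78), its interval covered 1, and with the mean of each cell's CPM it was 0.42 on the log2 scale and no longer a call. The cells with Higd1b held 21.1% of the HFD and 29.3% of the NC Pdgfa counts of the class. Without them Pdgfa was at 38.35 CPM in HFD and 21.2 in NC. Pdgfc had a ratio of 0.483 (0.249 to 0.897), which under the stricter filter was -0.42 on the log2 scale and no longer a call. Pdgfrl, at a ratio below 1.5-fold, had a log2 ratio of 1.02 under the stricter filter. Genes of macrophages and monocytes summed to 151 CPM in HFD and 37.5 CPM in NC in this class, and their part in these ratios was not tested.

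Pdgfa stood above 1 in each of the 4 fibroblast classes. Its ratio was 1.49 (1.16 to 1.90) in Asc1, 1.43 (1.14 to 1.79) in Gas6, 1.18 (0.769 to 1.80) in Pi16 fibroblasts and 1.59 in myofibroblasts, against 0.930 (0.737 to 1.18) in the class labelled pericytes. Under the stricter cell filter the direction in that class turned, to a log2 ratio of 0.26, and there Pdgfra was at 0.07 and Pdgfd at 0.66. The share of cells with a Pdgfa count was 4.13% in HFD and 2.89% in NC among thinned Asc1 cells, and 7.215% and 4.60% among thinned Gas6 cells. Left at all counts, these shares were 5.76% in HFD and 3.73% in NC for Asc1, and 13.8% and 9.94% for Gas6. Pdgfra was within 1.5-fold in every class measured, with 0.999 (0.959 to 1.04) in Asc1, 1.15 (1.09 to 1.21) in Gas6, 1.27 (1.14 to 1.41) in Pi16 fibroblasts and 0.861 (0.669 to 1.12) in the class labelled pericytes. Pdgfrl had 1.38 (1.12 to 1.70) in Pi16 fibroblasts, the class where Pdgfrb was also higher by size. Pdgfd in Asc1 fibroblasts had too few counts for a ratio, 31 in 10 HFD cells and 119 in 40 NC cells, and its levels of 1.17 CPM in HFD (0.448 to 2.50) and 4.66 in NC (3.14 to 6.66) did not overlap.

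**Figure D3:**
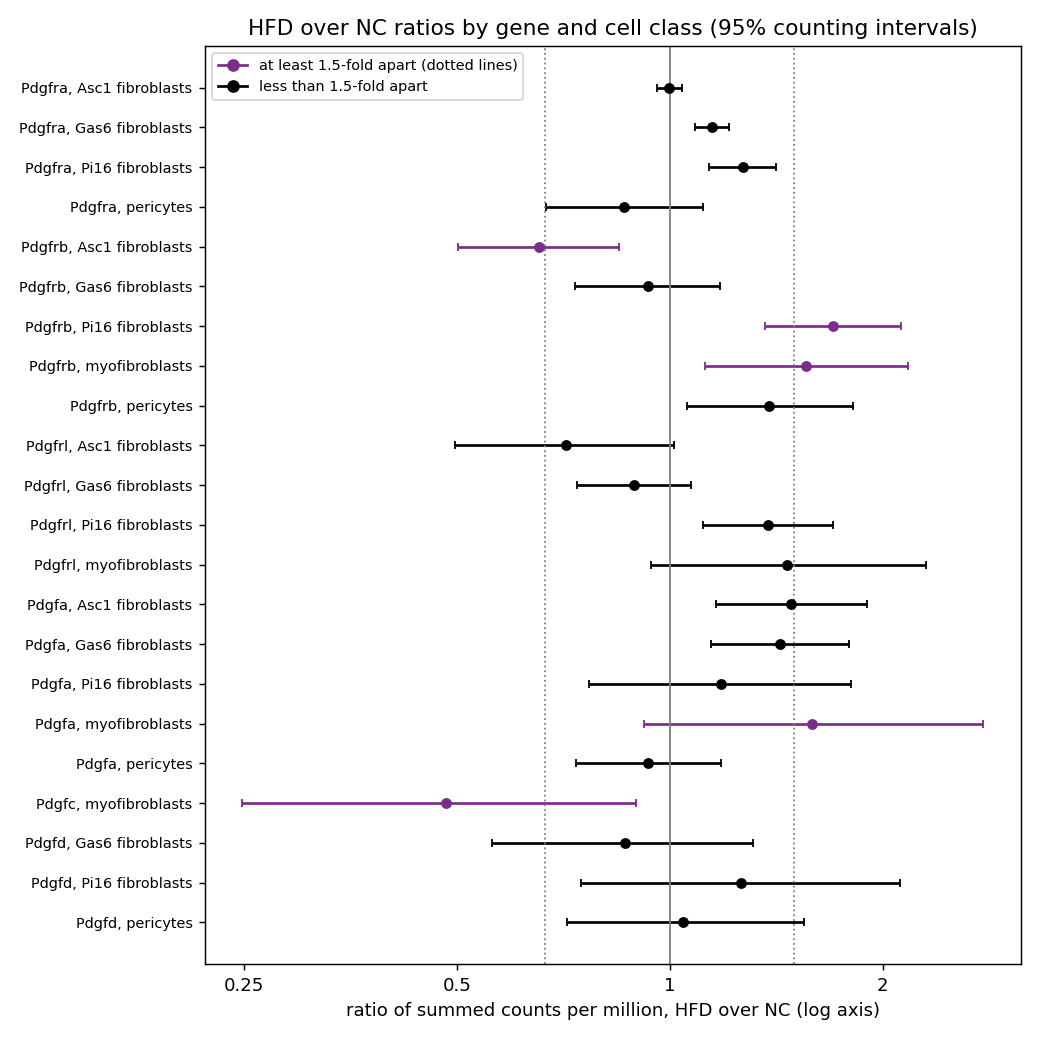
HFD over NC ratio of summed levels (CPM, log axis) for each gene and class with at least 50 effective counts, with 95% counting intervals; dotted lines mark 1.5-fold in either direction. Pdgfrb lies at 1.70 in Pi16 and 0.654 in Asc1 fibroblasts, while Pdgfra lies between 0.861 and 1.27.

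Detection of both receptors in the same cell was most frequent in Pi16 fibroblasts in HFD, while at all counts Pi16 and Gas6 fibroblasts had the same share in NC. Of Pi16 cells, 18.3% in HFD (15.7 to 21.2%) and 10.4% in NC (8.74 to 12.2%) had counts of both Pdgfra and Pdgfrb. Thinned to 3000 counts, 8.37% of HFD (6.53 to 10.5%) and 5.48% of NC Pi16 cells (4.25 to 6.94%) had both, and these intervals overlap. The share with both was 1.09 times the product of the single shares in HFD and 1.13 times in NC. Gas6 fibroblasts had both in 10.5% of cells in HFD and 10.4% in NC, and Asc1 fibroblasts in 2.94% in HFD and 3.90% in NC. Thinned, Gas6 fibroblasts had both in 3.105% in HFD and 2.80% in NC, below Pi16 fibroblasts in each library. Myofibroblasts had both in 3 of 510 HFD and 4 of 667 NC cells.

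At all counts, Pdgfrb-positive cells differed between classes in whether they also had Pdgfra, much as all cells of these classes did. In Asc1 fibroblasts 77.8% of Pdgfrb-positive HFD cells and 78.0% of NC cells had it, in Gas6 fibroblasts 89.1% in HFD and 84.6% in NC, and in Pi16 fibroblasts 70.9% in HFD and 61.1% in NC. In myofibroblasts these shares were 4.41% in HFD and 6.35% in NC, and in the class labelled pericytes 18.4% and 20.3%. Whole-class Pdgfra shares (HFD, then NC) were 84.7% and 83.1% for Asc1, 87.7% and 82.5% for Gas6 and 65.1% and 54.0% for Pi16. They were 4.12% and 6.15% for myofibroblasts and 17.45% and 19.6% for the class labelled pericytes. At all counts, cells with both receptors reached 0.919 to 1.13 times the product of the single shares in every class and library. Thinned, this ratio ran from 0.581 in the NC class labelled pericytes to 2.72 in HFD myofibroblasts, on 2 and 3 cells. The shares among Pdgfrb-positive cells moved with depth, and thinning to 3000 counts turned the order of Asc1 and Gas6 fibroblasts. Thinned, they were 65.3% in HFD and 64.2% in NC for Asc1, 56.7% and 49.1% for Gas6, 48.5% and 47.4% for Pi16, 6% and 6.38% for myofibroblasts and 4.95% and 5.88% for the class labelled pericytes. Over the pooled fibroblasts, both receptors were found in 6.46% of HFD and 6.27% of NC cells, or 2.81% and 2.68% when thinned. The class labelled pericytes held both in 7.55% of its HFD and 6.40% of its NC cells, and in 2.85% and 2.07% of those without Tcf21. Thinned, it held both in 0.840% of HFD (0.273 to 1.95%) and 0.810% of NC cells (0.0982 to 2.89%), or 5 HFD and 2 NC cells. These shares were lower than the thinned ones of the pooled fibroblasts, with intervals that overlap in NC.

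**Figure D4:**
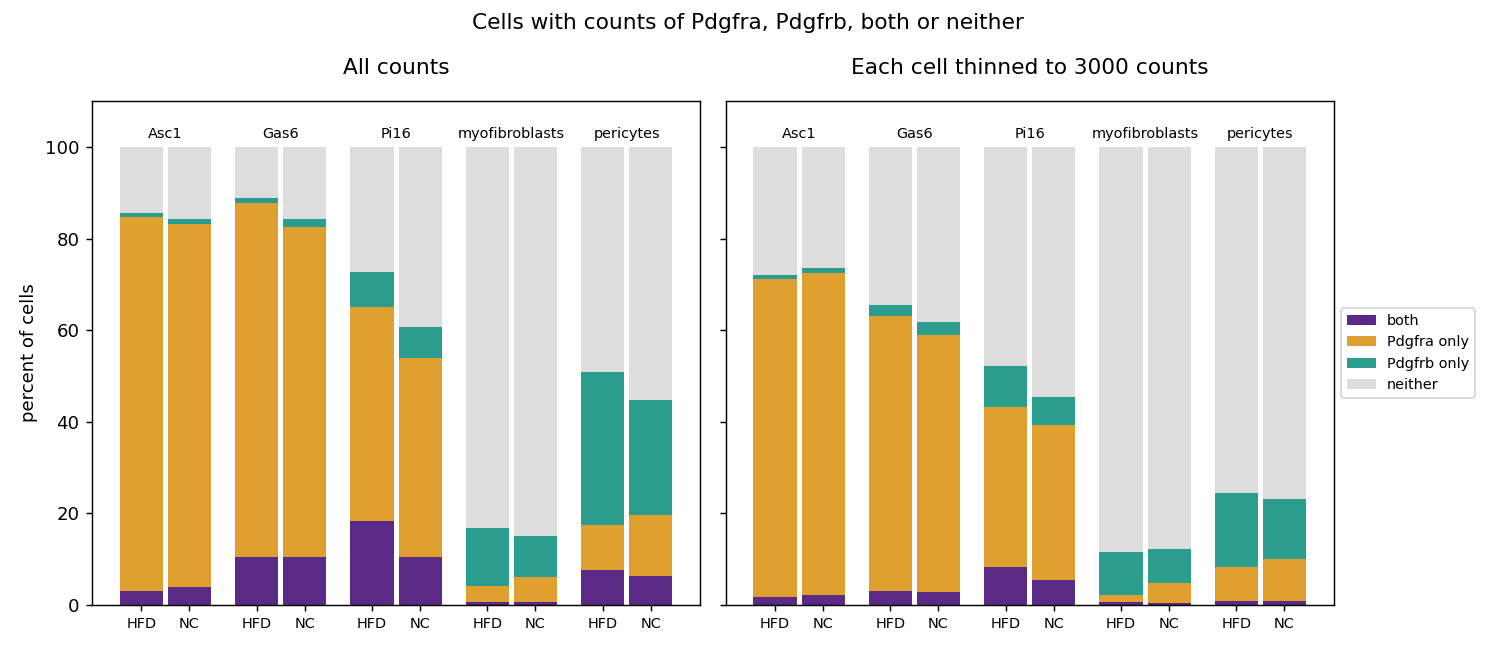
Percent of cells (vertical axis) with counts of both receptors, Pdgfra only, Pdgfrb only or neither, by class, with HFD left of NC. All counts are used on the left. On the right cells are thinned to 3000 counts, and cells with fewer are left out. Cells with both make up 18.3% of Pi16 fibroblasts in HFD and 10.4% in NC, or 8.37% and 5.48% when thinned. In NC at all counts Gas6 fibroblasts have the same share, 10.4%.

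Co-detection of receptor and ligand was also read per cell. Pdgfra and its ligand Pdgfa were found together in 4.88% of HFD and 3.03% of NC Asc1 cells and in 12.5% of HFD and 8.44% of NC Gas6 cells. These were 1.002 and 0.978 times the product of the single shares in Asc1, and 1.03 times in Gas6 fibroblasts of both libraries. Pdgfrb and its ligand Pdgfd were found together in 10.1% of HFD and 8.40% of NC cells of the class labelled pericytes, 1.345 and 1.33 times the product. After thinning that ratio was 1.47 in HFD and 0.632 in NC, resting on 10 HFD and 2 NC cells. Other classes had higher ratios at all counts, on few cells. In Asc1 fibroblasts the ratio was 5.29 in HFD and 3.50 in NC, on 2 and 7 cells. It was 2.315 and 1.72 in Gas6 fibroblasts (12 and 18 cells) but 0.731 and 1.15 in Pi16 fibroblasts (7 and 10 cells). Myofibroblasts had Pdgfrb and Pdgfd together in 1 HFD and 0 NC cells.

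Within the Asc1 class, a finer deposited column names a subset, SNAT2 fibroblasts, with 245 kept HFD and 359 kept NC cells. Pdgfra was at 1240.1 CPM in HFD and 1194 CPM in NC there, against 764 and 765 CPM in the rest of the class. Pdgfrb was at 89.3 CPM in HFD (54.5 to 138) and 129.7 CPM in NC (92.0 to 178), against 14.0 and 21.2 CPM in the rest. These counts of the subset lay in 23 HFD and 37 NC cells, and the 10 highest cells held 75.3% and 58.8% of them. The highest NC cell had 21 Pdgfrb counts, while no kept NC cell outside the PDGFRb hi label had more than 15. The part of PDGFRb hi cells in the level of the subset was not tested. These cells were shallow, with a median of 4009 counts in HFD and 3037 in NC. Among thinned cells, Pdgfrb was found in 7% of HFD and 6.99% of NC cells of the subset, against 2.16% of HFD and 3.04% of NC cells of the rest. Pdgfra was found in 73.5% of HFD and 81.2% of NC cells of the subset, against 71.1% and 71.9%. Only 200 of the 245 HFD and 186 of the 359 NC cells of the subset were deep enough for these thinned shares. At all counts the direction for Pdgfra was the other way, with 75.9% of HFD and 74.9% of NC cells of the subset, against 85.4% and 83.9%. Without the subset, the Pdgfrb log2 ratio in Asc1 fibroblasts was -0.59.

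The genes closest to each receptor over the 10 sums of class and library were found by Pearson correlation of log2(CPM + 1) among 3878 genes. Closest to Pdgfra were Tmem119 (0.996), Scarf2 (0.996), H6pd (0.9945), Inmt (0.994) and Sh3bp5 (0.993). Inmt, a methyltransferase gene, was at 7161 CPM in HFD and 5449 in NC in Asc1 fibroblasts, and at 216 CPM in HFD myofibroblasts. Closest to Pdgfrb were Trio (0.960), Eef1d (0.948), Cd9 (0.941), Ndufa4l2 (0.937) and Gng10 (0.932). The tetraspanin gene Cd9 ranged from 16.1 CPM in HFD and 16.7 in NC in Asc1 fibroblasts to 962 CPM in HFD and 902 in NC in the class labelled pericytes. Pdgfra and Pdgfrb had a correlation of -0.77 with each other. These are descriptions over sums that share libraries, with each class entered for both libraries.

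Genes around the pathway were read in 6 lists in the pooled fibroblasts, where 83 listed genes were measured. Of them 1 was called higher and 5 lower in HFD, against the 5.45% and 4.75% of all genes given above. The median log2 ratio of all measured genes was 0.02.

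Of the genes that process ligands, 8 were measured, 0 were higher and 2 lower, with a median log2 ratio of -0.15. Plat, the tissue plasminogen activator that cleaves the C ligand, was at 119.8 CPM in HFD and 196 in NC, a ratio of 0.611 (0.574 to 0.651). The urokinase receptor gene Plaur was at 4.88 CPM in HFD and 12.8 in NC, a ratio of 0.381 (0.280 to 0.511). The proprotein convertase gene Pcsk5 had a ratio of 0.721 (0.649 to 0.800), within 1.5-fold. Plat stood below 1 in every one of the 5 classes, with ratios from 0.521 in the class labelled pericytes to 0.798 in Pi16 fibroblasts.

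Of coreceptors and binding proteins 9 were measured, 0 were higher and 2 lower, with a median of -0.06. Thbs1, the matrix protein thrombospondin that binds PDGF, was at 2461 CPM in HFD and 3713 in NC, a ratio of 0.663 (0.654 to 0.672). Cspg4, a proteoglycan of pericytes that binds the A ligand, was at 3.51 CPM in HFD and 5.51 in NC, a ratio of 0.638 (0.431 to 0.929), whereas in the class labelled pericytes it had 1.345. Sparc, which binds the B ligand, had 0.779 (0.762 to 0.797), and the neuropilin genes Nrp1 and Nrp2 had 1.185 (1.11 to 1.26) and 1.25 (1.17 to 1.34).

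None of the 34 measured genes of signal transduction was called, and their median was -0.04. The transcription factor gene Stat3 had the ratio 0.713 (0.677 to 0.751), the kinase gene Braf 0.773 (0.679 to 0.879) and the adaptor gene Nck1 1.34 (1.19 to 1.51). Of 18 measured genes that attenuate receptor signalling, 1 was higher and 1 lower, with a median of -0.09. Dusp4, a phosphatase of MAP kinases, was at 4.36 CPM in HFD and 2.58 in NC, a ratio of 1.69 (1.105 to 2.599). Errfi1, an inhibitor of EGF receptor kinases, was at 196 CPM in HFD and 484 in NC, a ratio of 0.405 (0.387 to 0.424), and had ratios from 0.325 to 0.496 in the 5 classes. The phosphatase genes Dusp5 and Ptpn2 had 0.673 (0.551 to 0.8195) and 0.705 (0.626 to 0.792).

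Among related receptor genes, 6 were measured and none was called, with a median of -0.05. Egfr had a ratio of 0.701 (0.614 to 0.799) and Fgfr1 of 0.813 (0.761 to 0.867), while the collagen receptor genes Ddr1 and Ddr2 had 1.10 (0.933 to 1.29) and 0.941 (0.875 to 1.01). Among 8 measured related ligand genes, none was called and the median was 0.24. The vascular growth factor genes Vegfa, Vegfb and Vegfd had ratios of 1.365 (1.28 to 1.46), 1.40 (1.22 to 1.60) and 1.33 (1.26 to 1.41), and the macrophage growth factor gene Csf1 had 0.735 (0.658 to 0.821). In Gas6 fibroblasts Vegfa had 1.57 and Vegfb 1.58, and in Pi16 fibroblasts 0.927 and 1.08.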

How the data were processed

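Both tables hold log2 values per cell and gene, which the values show to be log2 of CPM plus 1 although no header of the deposited tables names a unit. Each deposited table also gives a total per cell, an estimated count, and, per the file headers, mitochondrial shares in percent. STAR and mm39 are named in the submitters' processing notes. Versions, doublet removal and whether molecules or reads were counted are not given in the sources used here. The log2 scale was undone and each value multiplied by its cell's total to give counts, of which 98.8% of HFD and 98.96% of NC ones were whole within 0.01. Doublets were not removed here.

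The members and gene lists were chosen with earlier results of these data known. Counts were summed per library and class (Python 3.11.15, scipy 1.17.1), with exact Poisson intervals on effective counts and Clopper-Pearson intervals for shares. The calculation was run on simulated Poisson counts drawn with the same factors as the intervals. That run checks the arithmetic only and cannot show whether the factors hold for real genes. Named pathway genes were those past 1.5-fold and the 4 per list whose interval bound lay farthest from 1, except 2 that are not reported here. Symbols came from a gene name table that matched 20180 identifiers. Promoter stretches came from RefSeq (GRCm38.p6), which held none usable for Pdgfrl and Pdgfb. Pdgfrb was left out of the search because the sequence of its chromosome is not reported here. The alternatives without Higd1b cells, SNAT2 cells or Tcf21 cells were chosen after seeing the data.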

Additional observations from a re-analysis of the deposited data

Results flagged for a closer look

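The HFD over NC ratio of Pdgfrb pointed in opposite directions in different classes. It was 1.70 in Pi16 fibroblasts, 1.56 in myofibroblasts and 1.38 in the class labelled pericytes, against 0.654 in Asc1 fibroblasts, and each interval left out 1. These intervals do not use the clumping of Pdgfrb itself and may be too narrow. In HFD myofibroblasts, 10 cells held 49.3% of the Pdgfrb counts. The difference between classes was not tested. In myofibroblasts the ratio turned to -0.14 on the log2 scale without the cells that had Higd1b. In the class labelled pericytes it was 0.46 on that scale, and 0.11 at the lowest of 6 alternatives.

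A column that the comparisons do not use holds a strong Pdgfrb signal. The 24 kept NC cells that an earlier annotation calls PDGFRb hi had 1854 CPM of Pdgfrb, against 35.5 CPM in the other kept NC cells, and the label itself names this gene.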

How the results depend on the processing

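No paired analysis was possible because each diet had 1 library, and for the same reason no replicate could be left out. Values here are log2 of HFD over NC in the pooled fibroblasts unless another class is named, and a change counts where it left the counting interval. With the 4 classes weighted equally, Pdgfrb was 0.47 (0.17 as reported), Pdgfrl 0.29 (-0.02) and Pdgfd 0.12 (-0.32). With all 5 classes pooled, Pdgfra was -0.051 (0.13), Pdgfrb 0.40, Pdgfrl -0.21 and Pdgfd 0.29. The mean of each cell's CPM gave Pdgfra 0.081. Without the 1% of cells with the most counts of the gene itself, Pdgfa was 0.71 (0.49) and Pdgfd -0.998. Pdgfc then had no value because no HFD count was left, its counts lying in 41 of 5493 HFD cells. Pdgfd had counts in 99 HFD cells and in 181 of 7890 NC cells. This cut therefore took a large part of the Pdgfd-positive cells of each library. The cause of these shifts was not tested.

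Shares of positive cells moved with depth. For Pdgfra the log2 ratio of shares was 0.06, and 0.023 thinned to 3000 counts, 0.0049 thinned to 5000 and 0.18 for cells with at least 3 counts. For Pdgfrb it was 0.06, then -0.10 at 5000 counts and 0.33 for at least 3 counts. For both receptors together it was 0.04, then -0.19 and 0.45. Higher pathway genes numbered 1, but 2 under the stricter cell filter and with no count minimum, and 0 with classes weighted equally, with means of each cell's CPM and at a ratio of at least 2. Lower ones numbered 5, and 2 at that ratio. In myofibroblasts Pdgfrb was 0.64 and turned to -0.14 without Higd1b cells. Among alternatives for the main results, 74 stayed within the interval, or within 1.5 times a count, and the 23 that did not are those above. The lower depth of the NC library and the few positive cells limit what the ligand ratios and the shares can show.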
